A study of Mus musculus with 8 samples.

Results

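The promoters of 8 genes that write, copy or erase DNA methylation were followed through H3K27ac HiChIP contact maps of mouse embryonic stem cells. The genes were Dnmt1, Dnmt3a, Dnmt3b, Dnmt3l, Uhrf1, Tet1, Tet2 and Tdg. HiChIP ligates neighbouring chromatin fragments and pulls down those with a chosen histone mark. Here it was H3K27ac, histone H3 acetylated at lysine 27, found at active promoters and enhancers. Each count was a read pair that joined the anchors of a loop, so a count depends both on acetylation of an anchor and on proximity, and these cannot be told apart. A loop belonged to a gene when at least 1 of its anchors held an annotated GRCm38 transcription start of the gene (GENCODE release M21) or lay within 5 kb of one. This rule took 747 of the 415681 loops of the series, which met at 18 promoter anchors, and 0 of them were shared by 2 of the genes. None of the 8 genes lies on chromosome 13.

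The 4 embryonic stem cell lines had 2 technical replicate libraries each, and every genotype was represented by a single line. The B6 cells came from C57BL/6J mice and the D2 cells from DBA/2J mice, both inbred. The congenic B6-13D2 cells had the strain designation B6.D2-(rs30079041-rs51756099)/Bakr, in which a chromosome 13 interval of D2 origin sits in B6 background. The reciprocal D2-13B6 cells were D2.B6-(rs29224292-rs13469455)/Bakr in the sample labels, while the series description names rs51756099 as its second marker. All lines were grown with 15% serum, leukaemia inhibitory factor, the MEK inhibitor PD0325901 at 1 µM and the GSK3 inhibitor CHIR99021 at 3 µM. Library totals ran from 737955 to 1425304 counts, and the D2-13B6 libraries were the deepest. D2-13B6 also stood apart in how its counts fell over chromosomes: chromosome 11 took 13.9% ± 0.0465 of them (SD, 2 libraries) against 10.2% to 10.3% in the other lines, and chromosome 13 took 2.81% ± 0.0188 against 3.24% to 3.41%. Of the chromosomes that hold the 8 genes, 2, 3, 9 and 12 had their lowest share in D2-13B6 as well, such as 7.16% of counts on chromosome 2 against 7.55% to 7.61%, so differences were also tested with a scaling factor per chromosome. Of the called differences given below with their values, 2 lost the call under it, Zfp57 in D2 against D2-13B6 and Idh1 in the averaged interval effect. Of 9 markers of naive embryonic stem cells, 9 had promoter contacts in every line, with sums of 3.88e+03 to 5.01e+03 CPM, the counts of a library scaled to a common total. Of 21 markers of other cell types, 15 were at 0 in all libraries, and the 5 markers of fibroblast feeder cells summed to 46.4 to 80.6 CPM.

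DNA methylation at CpG sites is laid down by the de novo methyltransferases Dnmt3a and Dnmt3b, helped by the catalytically inactive Dnmt3l, and is copied onto new strands by Dnmt1, which Uhrf1 brings to hemimethylated sites. Tet1 and Tet2 oxidise methylcytosine, and the glycosylase Tdg cuts out the most oxidised forms so that repair can restore cytosine. Mouse embryonic stem cells grown with inhibitors of MEK and GSK3 are known for low DNA methylation and for strong expression of Tet1 and Tet2.

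The starts of these genes differ in CpG density, the substrate of the enzymes they encode. Of RefSeq promoters on GRCm38.p6, 15 starts matched the 8 genes, and the median of all 32851 promoters was 6 CpG sites in the 250 bases before a start. The sequences below are from the members whose promoter sums were called in a contrast between lines, plus Tet2, which had the most CpG sites of the 15. Not every matched start of Dnmt3a and Dnmt3l is shown. Each is written 5′ to 3′ on the strand of the gene, with CpG sites in capitals.
Dnmt3a, long-isoform start, chr12:3806730-3806979, plus strand: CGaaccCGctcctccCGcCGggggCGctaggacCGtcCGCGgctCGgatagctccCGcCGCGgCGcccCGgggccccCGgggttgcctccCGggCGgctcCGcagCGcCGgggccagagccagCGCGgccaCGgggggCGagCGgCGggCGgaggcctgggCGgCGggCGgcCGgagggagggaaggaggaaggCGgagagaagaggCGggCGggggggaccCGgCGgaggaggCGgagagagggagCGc
Dnmt3a, short-isoform start, chr12:3891494-3891743, plus strand: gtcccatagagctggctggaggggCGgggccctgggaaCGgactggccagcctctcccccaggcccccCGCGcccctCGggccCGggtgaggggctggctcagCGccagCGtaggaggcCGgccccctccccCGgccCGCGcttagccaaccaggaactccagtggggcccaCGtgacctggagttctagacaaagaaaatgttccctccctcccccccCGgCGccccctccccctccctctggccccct
Dnmt3l, first RefSeq start, chr10:78042037-78042286, plus strand: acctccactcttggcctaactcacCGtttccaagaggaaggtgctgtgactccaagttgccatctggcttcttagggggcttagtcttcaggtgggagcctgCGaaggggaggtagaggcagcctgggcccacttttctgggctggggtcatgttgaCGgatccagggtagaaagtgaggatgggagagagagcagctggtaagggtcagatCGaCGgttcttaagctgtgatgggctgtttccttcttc
Tet1, chr10:62887325-62887574, minus strand: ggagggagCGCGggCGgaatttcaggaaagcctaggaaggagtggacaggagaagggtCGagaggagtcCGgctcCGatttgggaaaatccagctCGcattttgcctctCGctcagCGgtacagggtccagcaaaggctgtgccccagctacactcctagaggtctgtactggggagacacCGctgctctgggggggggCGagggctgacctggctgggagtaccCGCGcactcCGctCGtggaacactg
Tet2, chr3:133544391-133544640, minus strand: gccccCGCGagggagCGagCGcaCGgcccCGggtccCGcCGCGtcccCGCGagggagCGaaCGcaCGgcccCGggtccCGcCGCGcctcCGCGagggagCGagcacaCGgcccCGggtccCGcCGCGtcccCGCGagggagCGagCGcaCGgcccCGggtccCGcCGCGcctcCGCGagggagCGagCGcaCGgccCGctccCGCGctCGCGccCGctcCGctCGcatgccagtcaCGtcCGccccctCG
The long-isoform promoter of Dnmt3a held 38 CpG sites and its short-isoform promoter 15. The first promoter of Dnmt3l held 5 CpG sites, near the median of all promoters. Tet1 held 15 CpG sites and Tet2 51, and 99.9% of all promoters held fewer than Tet2. The other starts ran from 2 CpG sites at the most upstream start of Dnmt1 to 40 at another Dnmt3a start.

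Of the 8 promoters, those of Tet1 and Tet2 had the most contacts. Over the 8 libraries, Tet1 averaged 1166 CPM (from here on, except for bins and marker genes, after scaling of library totals with TMM factors) and stood at percentile 98.8 of the 19524 genes tested, and Tet2 averaged 814 CPM at percentile 97.2. The median of all tested genes was 60 CPM, close to Dnmt3a at 59.0 CPM and Dnmt3b at 61.7 CPM. Anchors differ in length, so genes were compared per kb of anchor. Per kb, Tet1 had 14.6 CPM, Dnmt3b 12.3, Tet2 10.9, Uhrf1 9.92, Dnmt1 8.90, Tdg 5.08, Dnmt3l 3.42 and Dnmt3a 2.95. Dnmt3b was thus low in total and high per kb, since its single anchor was 5 kb long, against 80 kb of anchor at Tet1. That anchor, at chr2:153640001-153645000, held no annotated start of Dnmt3b and ended 4450 bp from the nearest one. Just outside the 5 kb window lay chr10:62915001-62925000, 6005 bp from a start of Tet1, with 162 CPM, and chr9:20885001-20900000, 8979 bp from a start of Dnmt1, with 103 CPM.

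**Figure D1:**
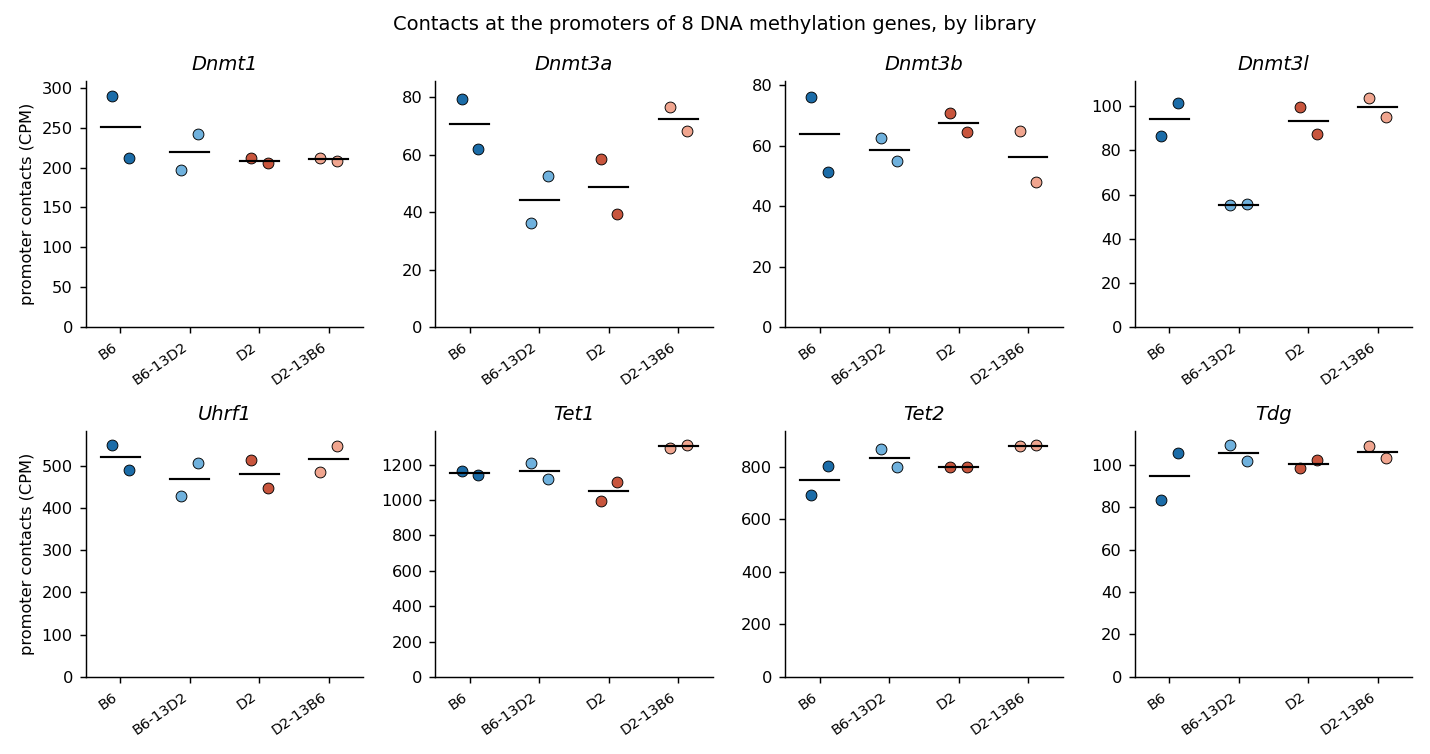
Promoter contacts of each gene (CPM, y axis from 0, a separate scale for each panel) in the 4 lines; points are the 2 libraries of a line and bars their mean. Dnmt3l is low in both B6-13D2 libraries (55.1 and 55.7 CPM), and Tet1 is highest in both D2-13B6 libraries (1295 and 1309 CPM).

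The partners of the promoters differed from gene to gene. Contacts inside 1 anchor made up 62.6% ± 3.42 of the counts of Tet2 (SD over 8 libraries), 44.3% ± 3.83 of Dnmt3l, 34.8% ± 2.28 of Tet1, 31.2% ± 3.45 of Uhrf1 and 9.43% ± 3.61 of Tdg. The median over 11627 tested protein-coding genes was 0%, with an upper quartile of 13.3%. Dnmt1, Dnmt3a and Dnmt3b had 0 such counts, and their anchors were 5 or 10 kb long, too short to hold a pair of bins at the spacing of the deposited pairs. The share therefore follows how the anchors were merged as well as the contacts themselves. Dnmt1 contacted mostly anchors at starts of other protein-coding genes, which took 68.5% ± 4.76 of its counts, and Tdg was close to it at 62.4% ± 5.19. Tet2 sent 9.96% ± 0.955 of its counts to such anchors. Contacts that spanned at least 100 kb made up 76.9% ± 9.32 of the counts of Dnmt3a and 71.9% ± 6.74 of Tdg, but 12.2% ± 1.24 of Tet2. Contacts of at least 100 kb were thus the larger share at Dnmt3a and Tdg, and contacts inside 1 anchor at Tet2, whose longest anchor was 50 kb. The share of long contacts over all genes was not taken. At Dnmt3a it ran from 61.8% to 87.1% over the libraries. Loops deep enough to test held 22.4% of the counts of Dnmt3a, so its share rests mostly on sparse loops.

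**Figure D2:**
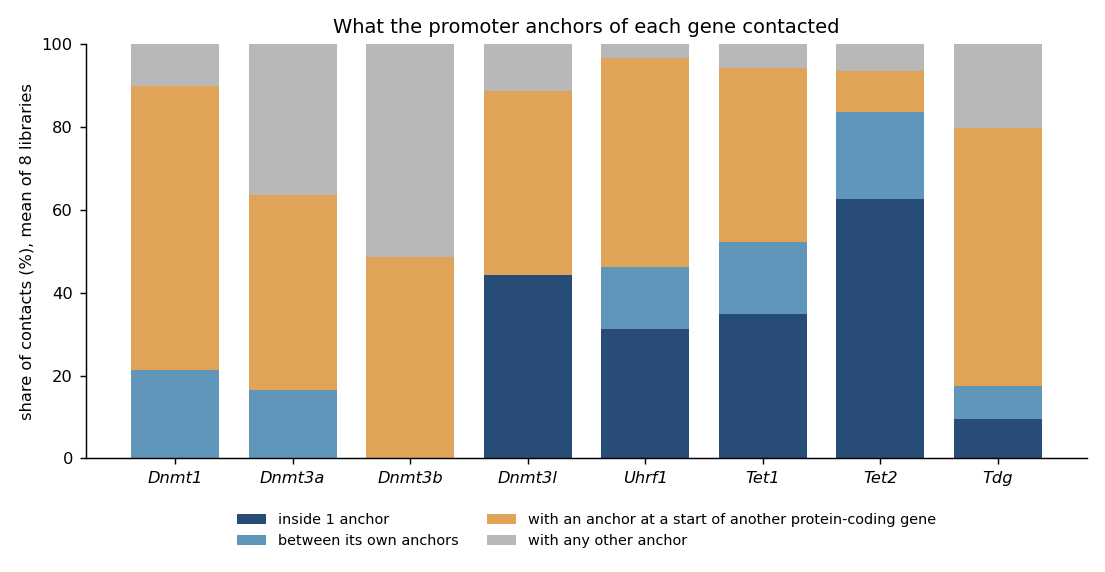
Share of each gene's promoter contacts (percent of counts, mean of 8 libraries) that lay inside 1 anchor, between anchors of the same gene, with an anchor at a start of another protein-coding gene, or with any other anchor. The share inside 1 anchor is 62.6% for Tet2 and 0 for Dnmt1, Dnmt3a and Dnmt3b.

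The strongest loops named these partners. For Tet2, the strongest loop lay inside the anchor chr3:133500001-133550000 around its upstream starts, at 495 CPM on average, and the next joined that anchor to chr3:133475001-133490000 farther into the gene at 93.4 CPM. The third joined the latter to chr3:133460001-133470000 at 42.2 CPM. For Tet1, contacts inside the gene-body anchor chr10:62830001-62875000 averaged 251 CPM, those between it and the 5′ anchor chr10:62880001-62910000 averaged 174 CPM, and those inside the 5′ anchor 155 CPM. For Uhrf1, contacts inside chr17:56275001-56310000, which also holds or neighbours starts of Arrdc5, Plin3 and Ticam1, averaged 146 CPM, a loop to the start of Fem1a averaged 105 CPM, and a loop between both Uhrf1 anchors 75.5 CPM. For Dnmt1, the strongest loop joined its own anchors chr9:20930001-20940000 and chr9:20945001-20955000 at 33.2 CPM, and the next ones ran from each of these to the start of S1pr2, at 29.8 CPM from the latter and 10.04 CPM from the former. The single anchor of Dnmt3b met chr2:153575001-153625000, which is near no annotated start, at 27.6 CPM and the start of Commd7 at 14.6 CPM, and that of Cbfa2t2, over 800 kb, at 3.05 CPM. Contacts inside the Dnmt3l anchor averaged 37.7 CPM, and its leading loops outside it went to Pfkl at 11.2 CPM and to Pwp2 at 5.59 CPM. Tdg met Txnrd1 at 15.7 CPM and Nfyb at 13.0 CPM, both over more than 100 kb, and had 9.62 CPM inside its 5′ anchor. For Dnmt3a, 3 loops were deep enough to test, of which 1 joined its own anchors at 7.66 CPM and 2 reached 460 kb and 470 kb to the starts of Asxl2 and Ncoa1, at 3.17 and 2.12 CPM. The loops to Asxl2 and Ncoa1 held 1 to 7 and 0 to 6 counts per library. That of Dnmt3b to Cbfa2t2 held 1 to 7, so all of these lay near the floor of the count filter.

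Differences between lines were asked in 6 contrasts, each fitted to the promoter sums of all genes with the quasi-likelihood test of edgeR. Averaged effects were taken for the background, as lines of D2 background less lines of B6 background, and for the interval, as lines with its D2 allele less lines with its B6 allele. Pairs of lines were D2 against D2-13B6 and B6-13D2 against B6, which set a congenic line against its background strain, and the parental pair, D2 against B6. The labelled intervals of the congenic lines differ, so these pairs do not exchange the same segment, and the averaged interval effect and the interaction join 2 such segments. The interaction subtracted the second of these interval differences from the first. A gene was called at a false discovery rate (FDR) below 0.05 over all tested genes. All 8 genes passed the count filter. Because the replicates are technical and each genotype is 1 line, a call compares these lines, not independently derived lines of a genotype. Of the 8 genes, 1 was called in the averaged background effect (26.5% of all genes were), 2 in the averaged interval effect (9.69% of all), 2 in B6-13D2 against B6 (6.67% of all) and 1 in D2 against D2-13B6 (9.50% of all). In D2 against B6, edgeR called 0 of the 8, with 2 at an unadjusted p below 0.05 (over all genes, 12.4% were called and 25.1% had such a p). In the interaction it called 0 of the 8, with 3 at an unadjusted p below 0.05 (8.09% and 20.8% of all). The counts called ran from 0 to 2 of 8, and DESeq2 called 1 of the 8 in D2 against D2-13B6 and 0 in every other contrast. DESeq2 gave no adjusted p to 2 to 4 of the genes in each contrast except the averaged background effect and D2 against B6, Dnmt3a and Dnmt3b being among them each time. The median log2 fold change of the 8 genes lay between -0.15 and 0.07 in the 6 contrasts, against -0.02 to 0.03 for all genes.

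**Figure D3:**
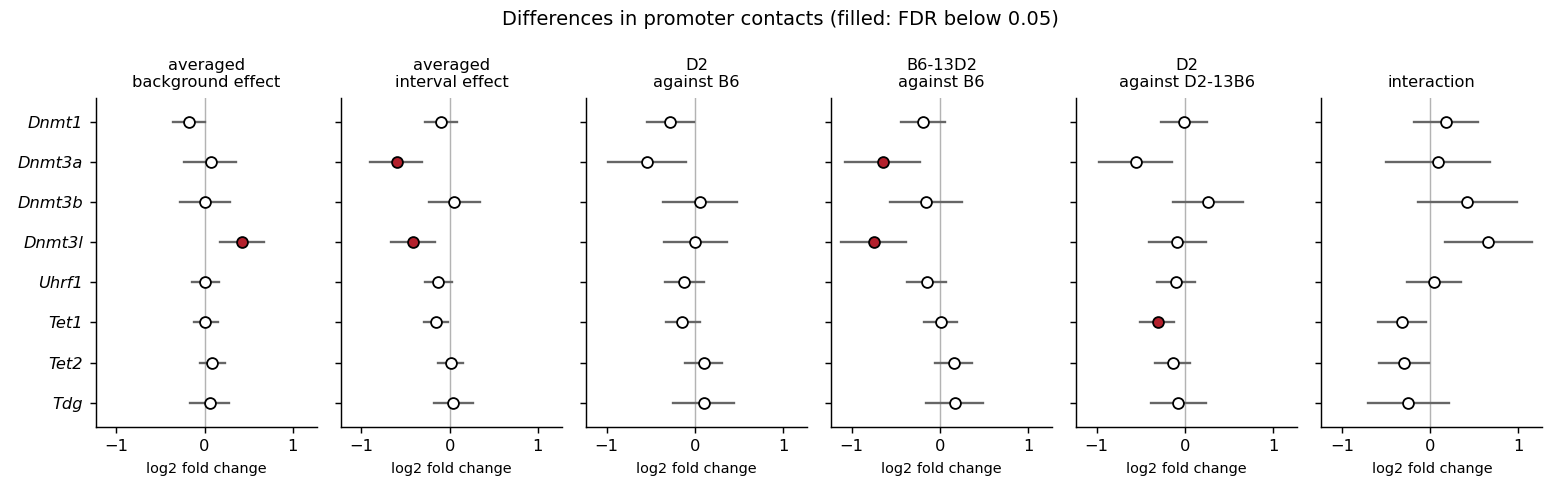
Log2 fold change of promoter contacts (x axis) of each gene in the 6 contrasts, with 95% intervals from edgeR standard errors; filled points passed an FDR of 0.05. Dnmt3a and Dnmt3l fell in the averaged interval effect, and Tet1 fell in D2 against D2-13B6.

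Dnmt3a, the de novo methyltransferase, had fewer promoter contacts in the lines that carry the D2 allele of the chromosome 13 interval. It measured 79.3 and 62.0 CPM in the B6 libraries and 76.6 and 68.3 CPM in the D2-13B6 libraries. It measured 36.1 and 52.7 CPM in the B6-13D2 libraries and 58.3 and 39.2 CPM in the D2 libraries. All 4 libraries with the B6 interval lay above all 4 with the D2 interval. The averaged interval effect was -0.60 on the log2 scale (SE 0.15, edgeR FDR 0.00363), a 1.52-fold lower level, and -0.65 with a scaling factor per chromosome (edgeR FDR 0.00148). Markers of primed cells, 1 of 3 with contacts (Otx2) and Fgf5 and Pou3f1 at 0, moved along the same split, at 50.2 and 42.8 CPM in D2 and B6-13D2 against 36.2 and 32.6 CPM in B6 and D2-13B6, and their part was not tested. It measured -0.65 in B6-13D2 against B6 (SE 0.21, edgeR FDR 0.0484) and -0.56 in D2 against D2-13B6 (SE 0.21, edgeR FDR 0.0744), which was not called. With a scaling factor per chromosome the latter was called (-0.63, edgeR FDR 0.0482), and it was -0.86 without D2 replicate 1 (edgeR FDR 0.0796) and -0.30 without D2 replicate 2 (edgeR FDR 0.62). The interaction was 0.09 (95% interval -0.50 to 0.68, edgeR FDR 0.91), an interval wide enough to hold effects of either sign. The call of the averaged interval effect was lost without B6 replicate 1 (-0.49, edgeR FDR 0.066) and without D2 replicate 2 (-0.47, edgeR FDR 0.0845), and DESeq2 gave an adjusted p of NA. Dnmt3a had 0 loops inside 1 anchor, and its nearest anchor outside the window lay 21007 bp from a start. Leaving out loops inside 1 anchor, or widening the window to 10 kb, therefore changed only the fit over all genes and none of its own counts. The call in B6-13D2 against B6 was lost in 11 of 17 alternatives. These were without B6 replicate 1 (-0.45, edgeR FDR 0.424), without B6-13D2 replicate 1 (-0.43, edgeR FDR 0.342), without either library of D2 or D2-13B6 (edgeR FDR 0.0551 to 0.0798), with a replicate block (-0.63, edgeR FDR 0.077), over anchors that hold a start (-0.41, edgeR FDR 0.335), with RLE factors (-0.63, edgeR FDR 0.0527), with anchors up to 10 kb from a start (-0.62, edgeR FDR 0.0561) and without loops inside 1 anchor (-0.61, edgeR FDR 0.0693). Without B6-13D2 replicate 2 it was kept at -0.99 (edgeR FDR 0.0142), so the size of this difference depended on which B6-13D2 library was used.

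The 3 promoter anchors of Dnmt3a were then taken apart, a step added after these values were seen. Over anchors that hold a start, B6-13D2 against B6 was -0.41 and not called, while the averaged interval effect kept its call. The anchor left out there is the one between the long-isoform and short-isoform starts, chr12:3870001-3875000. This anchor held 0 annotated starts and lay 3810 bp from the nearest one. It measured 27.9 and 22.9 CPM in B6 and 26.9 and 26.2 CPM in D2-13B6, against 15.7 and 10.1 CPM in B6-13D2 and 17.99 and 15.1 CPM in D2. The groups did not overlap, and with each anchor of the genome tested alone (6.25% of all anchors called) its averaged interval effect was -0.85 (SE 0.24, edgeR FDR 0.0167). The anchor at the short-isoform start, chr12:3885001-3895000, had an averaged interval effect of -0.55 (SE 0.18, edgeR FDR 0.0527), which was not called. The anchor at the long-isoform starts, chr12:3805001-3810000, was the weakest at 11.5 CPM on average and measured -0.42 (SE 0.33, edgeR FDR 0.534). The call at the middle anchor was lost without B6 replicate 1 (-0.77, edgeR FDR 0.113), without B6-13D2 replicate 2 (-0.69, edgeR FDR 0.105), and without either library of D2 or D2-13B6 (edgeR FDR 0.0544 to 0.0996).

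**Figure D4:**
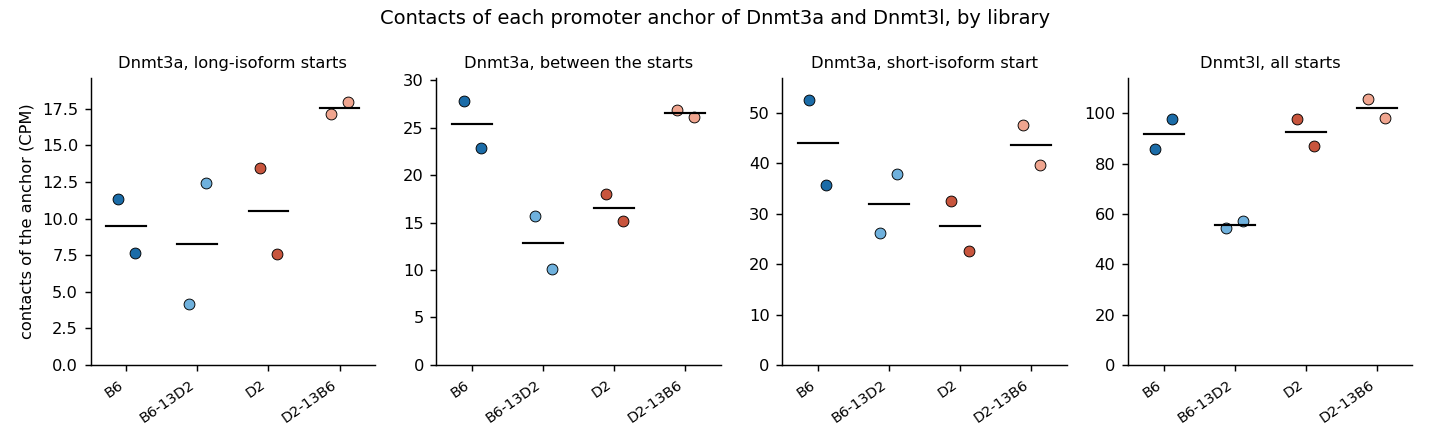
Contacts (CPM, y axis from 0) of the 3 promoter anchors of Dnmt3a, in order along the gene, and of the single anchor of Dnmt3l; points are the 2 libraries of a line and bars their mean. The middle Dnmt3a anchor is at 10.1 to 17.99 CPM in B6-13D2 and D2 and at 22.9 to 27.9 CPM in B6 and D2-13B6.

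Dnmt3l, the cofactor that stimulates Dnmt3a and Dnmt3b without methylating DNA itself, was low in one line. It measured 55.1 and 55.7 CPM in the B6-13D2 libraries. It measured 86.6 and 101 CPM in B6, 99.4 and 87.3 CPM in D2 and 104 and 95.2 CPM in D2-13B6. Both B6-13D2 libraries lay below the other 6, which overlapped one another. In B6-13D2 against B6 the level fell by 0.75 on the log2 scale (SE 0.19, edgeR FDR 0.005), which is 1.68-fold lower. In D2 against D2-13B6 the difference was -0.09 (SE 0.17, edgeR FDR 0.827), and the interaction was 0.66 (SE 0.25, p 0.00983, edgeR FDR 0.0903), which did not pass the threshold. It was called with library totals alone (0.83, edgeR FDR 0.0354) and without B6 replicate 1 (0.81, edgeR FDR 0.0485), and in the other 15 alternatives with an adjusted p it was not, so whether the interval effect differs between backgrounds depended on the setting. The averaged contrasts carried the same line: the background effect was 0.42 (SE 0.13, edgeR FDR 0.00665) and the interval effect -0.42 (SE 0.13, edgeR FDR 0.0195), with 0.40 (edgeR FDR 0.0104) and -0.42 (edgeR FDR 0.024) under a scaling factor per chromosome, while D2 against B6 measured 0.00 (SE 0.18, edgeR FDR 0.996). Markers of feeder cells, 3 of 5 with contacts and Thy1 and Twist2 at 0, were lowest in the same line at 51.7 CPM against 71.2 to 76.1, and their part in this difference was not tested.

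The single promoter anchor of Dnmt3l, chr10:78035001-78060000, holds all 6 of its annotated starts and lies within 5 kb of a start of Aire, so its counts cannot be assigned to Dnmt3l alone. Contacts inside the anchor measured 22.7 and 28.8 CPM in B6-13D2 and 37.1 to 47.8 CPM in the other 6 libraries, a difference of -0.67 in B6-13D2 against B6 that was not called as a loop (SE 0.27, edgeR FDR 0.319). The loop to Pfkl measured 9.27 and 5.17 CPM in B6-13D2 and 8.24 and 9.30 CPM in B6, against 12.4 to 15.3 CPM in the 4 libraries of D2 background, and its background effect of 0.88 was not called (SE 0.32, edgeR FDR 0.0622). The promoter call in B6-13D2 against B6 was lost without B6 replicate 2 (-0.64, edgeR FDR 0.0625) and with DESeq2 (-0.74, adjusted p 0.0535). The background call was lost without B6 replicate 1 (0.34, edgeR FDR 0.0626), without D2 replicate 1 (0.35, edgeR FDR 0.0805) and with DESeq2 (0.41, adjusted p 0.0972), and the interval call without B6 replicate 2 (-0.35, edgeR FDR 0.0738), D2 replicate 2 (-0.37, edgeR FDR 0.128) or D2-13B6 replicate 1 (-0.38, edgeR FDR 0.104) and without loops inside 1 anchor (-0.43, edgeR FDR 0.0779).

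Dnmt3b, the other de novo enzyme, varied within lines as much as between them. Its B6 libraries stood at 76.2 and 51.4 CPM, and all 6 other libraries fell between 48.0 and 70.9 CPM. Its largest difference among the contrasts of 2 lines was 0.26 in D2 against D2-13B6 (95% interval -0.13 to 0.66, edgeR FDR 0.478), an interval that holds both no change and a higher level in D2.

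No promoter sum of the maintenance pair was called, though 1 anchor of each gene was. Dnmt1, which copies methylation onto the new strand, measured 289 and 212 CPM in B6, 211 and 206 CPM in D2, 197 and 242 CPM in B6-13D2 and 212 and 209 CPM in D2-13B6. One B6 library stood apart above all others, and the second B6 library was level with D2-13B6. The difference of D2 against B6 was -0.28 (SE 0.13, p 0.0421, edgeR FDR 0.179) and was not called, and it ranged from -0.47 to -0.04 as single libraries were left out. Without B6 replicate 2, which leaves the high library alone, edgeR called it (FDR 0.0137). The averaged background effect of -0.18 (edgeR FDR 0.151) was likewise called without B6 replicate 2 (-0.29, edgeR FDR 0.00969) and without B6-13D2 replicate 1 (-0.26, edgeR FDR 0.0332). When anchors were tested alone, the one nearest the 3′-most start, chr9:20910001-20915000, was called in the averaged background effect (24.8% of all anchors were called) at -0.51 (SE 0.18, edgeR FDR 0.0272). It measured 54.7 and 36.9 CPM in B6 and 33.4 and 42.6 CPM in B6-13D2, against 31.5 and 26.5 CPM in D2 and 29.1 and 31.4 CPM in D2-13B6. All 4 libraries of B6 background lay above all 4 of D2 background. The call was lost without B6 replicate 1 (-0.35, edgeR FDR 0.254), without B6-13D2 replicate 2 (-0.41, edgeR FDR 0.166), without either library of D2 or D2-13B6 (edgeR FDR 0.0535 to 0.118), and with DESeq2 (-0.50, adjusted p 0.268).

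Uhrf1, the reader that guides Dnmt1 to hemimethylated DNA, measured 428 to 549 CPM over the 8 libraries, and the 4 lines overlapped. Its differences ran from -0.15 to 0.05 over the 6 contrasts, and none was called. One of its 2 anchors, chr17:56315001-56330000, which also lies by the start of the histone demethylase gene Kdm4b, measured 180 and 131 CPM in B6, 146 and 129 CPM in D2, 94.98 and 121 CPM in B6-13D2 and 113 and 137 CPM in D2-13B6. The B6 libraries lay above those of B6-13D2. Tested alone, it was 0.52 lower on the log2 scale in B6-13D2 against B6 (SE 0.16, edgeR FDR 0.0319, where 5.22% of all anchors were called). The anchor at its upstream starts differed by -0.03 in that contrast (SE 0.12, edgeR FDR 0.942). The call was lost with a replicate block (-0.52, edgeR FDR 0.0587), with DESeq2 (-0.52, adjusted p 0.167), without B6 replicate 1 (-0.26, edgeR FDR 0.559), without B6-13D2 replicate 1 (-0.38, edgeR FDR 0.247) and without either library of D2 or D2-13B6 (edgeR FDR 0.051 to 0.061).

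Tet1, a methylcytosine oxidase, had the most contacts of the 8 genes and was lower in D2 than in D2-13B6. It measured 1295 and 1309 CPM in the D2-13B6 libraries, 995 and 1103 CPM in D2, 1163 and 1143 CPM in B6 and 1207 and 1116 CPM in B6-13D2. Both D2-13B6 libraries lay above the other 6. D2 against D2-13B6 was -0.31 (SE 0.10, edgeR FDR 0.0261), so the level was 1.24-fold higher with the B6 interval in D2 background. In B6 background the interval difference was 0.01 (SE 0.10, edgeR FDR 0.973), and the interaction of -0.32 was not called (SE 0.14, p 0.023, edgeR FDR 0.153). The D2-13B6 libraries were also the deepest, at 1395052 and 1425304 counts against 831446 and 768078 in D2, and the part of depth was not tested. The call was kept with a scaling factor per chromosome (-0.30, edgeR FDR 0.0312) and by DESeq2 (-0.31, adjusted p 0.0181), and was lost with library totals alone (-0.22, edgeR FDR 0.109), with a replicate block (-0.31, edgeR FDR 0.0716), without loops inside 1 anchor (-0.24, edgeR FDR 0.104), and without any 1 of the libraries of D2 (edgeR FDR 0.4 and 0.0784) or D2-13B6 (edgeR FDR 0.142 and 0.214).

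The 3 anchors of Tet1 were tested alone as well, with no test between them. The 5′ anchor chr10:62880001-62910000, which holds 6 of its starts with the RefSeq start among them, measured 741 and 766 CPM in D2-13B6, 512 and 580 CPM in D2, 592 and 557 CPM in B6 and 613 and 608 CPM in B6-13D2. Tested alone, it was lower in D2 against D2-13B6 by 0.47 on the log2 scale (SE 0.11, edgeR FDR 0.002, where 5.84% of all anchors were called), and its interaction was -0.55 (SE 0.15, edgeR FDR 0.018, where 4.79% of all anchors were called). The anchor within the gene body, chr10:62830001-62875000, was also highest in both D2-13B6 libraries (756 and 740 CPM against 586 to 706 CPM in the other 6) and measured -0.29 in the same comparison of lines (SE 0.11, edgeR FDR 0.0963, not called). The anchor at the 3′ end, chr10:62810001-62815000, measured -0.11 (SE 0.19, edgeR FDR 0.839). Dropping the TMM factors shifts the interaction of anchors by 0.26, as taken from the mean log2 factors of the lines. With library totals alone, the 5′ anchor kept its call in D2 against D2-13B6 (-0.32, edgeR FDR 0.0228) and lost that of the interaction (-0.29, edgeR FDR 0.185). With a scaling factor per chromosome, both calls of this anchor were kept (-0.49, edgeR FDR 0.00141, and -0.54, edgeR FDR 0.0185). The call in D2 against D2-13B6 was lost without D2 replicate 1 (-0.38, edgeR FDR 0.172) and without D2-13B6 replicate 2 (-0.45, edgeR FDR 0.0637), and that of the interaction without D2 replicate 1 (-0.46, edgeR FDR 0.204) or any 1 of the libraries of B6-13D2 and D2-13B6 (edgeR FDR 0.0505 to 0.111).

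Bins of 5 kb, in which a contact within an anchor counts in both of its bins, divided the 5′ anchor further. The 4 bins of 5 kb from chr10:62880001 to 62900000, which surround the RefSeq start, each held more contacts, in CPM of the library total, in both D2-13B6 libraries than in the other 6. In the bin that starts at 62895001 the D2-13B6 libraries had 179 and 210 CPM and the other 6 had 131 to 162. The 2 bins farther upstream in the same anchor overlapped between lines, with 121 to 128 CPM in D2-13B6 and 93.8 to 143 in the others. In the gene-body anchor, the bin that starts at 62870001 was also highest in both D2-13B6 libraries, at 126 and 132 CPM against 92.6 to 119 in the other 6. The other bins of the gene-body anchor overlapped between lines. Contacts inside the 5′ anchor formed the Tet1 loop that was called. They measured 196 and 213 CPM in D2-13B6, 120 and 143 CPM in D2, 158 and 142 CPM in B6 and 133 and 137 CPM in B6-13D2, with -0.63 in D2 against D2-13B6 (SE 0.15, edgeR FDR 0.00647). Its averaged interval effect was -0.40 (SE 0.11, edgeR FDR 0.0375), and its interaction of -0.48 was not called (SE 0.22, edgeR FDR 0.475). Both calls were kept with a scaling factor per chromosome (-0.67, edgeR FDR 0.00372, and -0.43, edgeR FDR 0.0175). The first was lost without D2 replicate 1 (-0.52, edgeR FDR 0.345), D2-13B6 replicate 1 (-0.68, edgeR FDR 0.0536) or D2-13B6 replicate 2 (-0.58, edgeR FDR 0.189), and the second with a replicate block (-0.40, edgeR FDR 0.0753), at a minimum of 2 counts (-0.44, edgeR FDR 0.134), with DESeq2 (-0.39, adjusted p 0.0674) and without any 1 of 7 libraries (edgeR FDR 0.0639 to 0.244), the exception being B6 replicate 2.

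**Figure D5:**
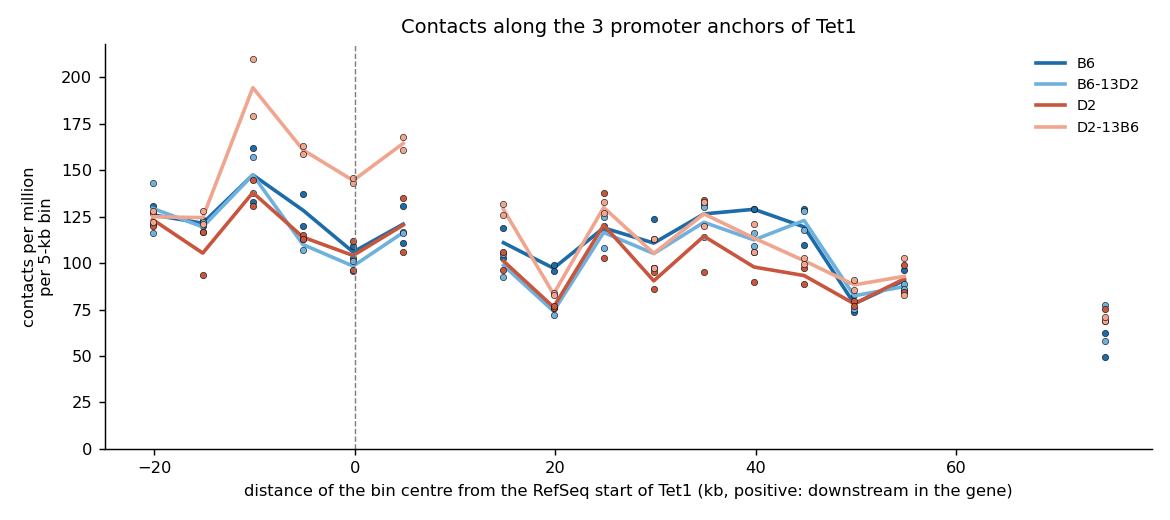
Contacts (CPM of the library total) in each 5-kb bin (y axis from 0) of the 3 Tet1 anchors, by distance from the RefSeq start (x axis, kb, positive into the gene); points are libraries and lines join the means of a line of cells within an anchor. In the 4 bins around the start D2-13B6 lies above the other lines, with 179 and 210 CPM at its peak. It also does so in the gene-body bin that starts at 62870001, with 126 and 132 CPM.

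Tet2, the second oxidase, measured 877 and 882 CPM in D2-13B6, 799 and 799 CPM in D2, 693 and 802 CPM in B6 and 866 and 798 CPM in B6-13D2. The D2-13B6 libraries again lay highest, but the difference from D2 was -0.14 (SE 0.10, edgeR FDR 0.458) and was not called. The interaction of -0.29 was not called either (SE 0.14, p 0.0443, edgeR FDR 0.224), and it was 0.00 without loops inside 1 anchor. Its 5′ anchor, chr3:133500001-133550000, had an interaction of -0.45 when tested alone (SE 0.15, edgeR FDR 0.0603).

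Tdg, which removes the oxidised bases that Tet enzymes leave, held to a narrow range of 83.5 to 109 CPM over the 8 libraries. Its differences ran from -0.25 to 0.17 over the 6 contrasts, and none was called. Contacts inside its 5′ anchor were few, with 4 to 7 counts (5.15 to 8.26 CPM) in each library of B6 and D2 and 12 to 21 counts (10.9 to 15.1 CPM) in each library of both congenic lines. The interaction of this loop was -2.06 (SE 0.70, edgeR FDR 0.197) and was not called.

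Single loops gave few calls. Of the 747 loops, 115 passed the filter of at least 5 counts in at least 2 libraries, and these held 87.7% of the counts of the 8 genes. In the loop fit, 1 loop was called in the averaged background effect (8.85% of all tested loops), 1 in the averaged interval effect (0.989% of all) and 1 in D2 against D2-13B6 (0.910% of all). In D2 against B6 (2.65% of all called), B6-13D2 against B6 (0.879% of all) and the interaction (0.602% of all), edgeR and DESeq2 each called 0, with 8, 9 and 13 of the 115 loops at an unadjusted edgeR p below 0.05, against 13.3%, 9.91% and 8.97% of all tested loops. The last 2 of the called differences were those of the Tet1 loop inside its 5′ anchor. The first was a loop of 110 kb between chr17:56180001-56185000, at the start of Mydgf, and the upstream anchor of Uhrf1, with 3 and 1 counts in B6, 0 and 6 in B6-13D2, 9 and 5 in D2 and 8 and 8 in D2-13B6. Its background effect was 1.49 (SE 0.51, edgeR FDR 0.0419), the backgrounds did not overlap in CPM (0 to 4.43 in B6 background and 5.76 to 10.6 in D2 background), and that call was lost without any 1 of 6 libraries (edgeR FDR 0.0703 to 0.231), namely B6 replicates 1 and 2, D2 replicate 1, B6-13D2 replicate 1 and D2-13B6 replicates 1 and 2. It was also lost at a minimum of 2 counts (1.55, edgeR FDR 0.0871) and without loops inside 1 anchor (1.48, edgeR FDR 0.0513). The value was 1.10 without B6-13D2 replicate 1, which had 0 counts, and 3.71 without B6-13D2 replicate 2, which had 6, so its size rested on these libraries. Of 30 tested genes within 500 kb of Uhrf1, 14 were called higher in the averaged background effect, Mydgf among them, against 13.8% of all genes. Neighbours can share anchors and loops, as Mydgf and Uhrf1 share the called one, so such calls need not be independent. In the same contrast, 4 of 6 neighbours of Tdg were called higher (Eid3, Gm4924, Nfyb and Txnrd1), 2 of 19 of Tet1 and 1 of 10 of Dnmt3a. So were 1 of 9 of Dnmt3b, and 0 of 34, 0 of 12 and 0 of 3 of Dnmt1, Dnmt3l and Tet2.

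Partners, regulators and repair factors of the same pathway were read from a list of 44 genes, of which 38 passed the count filter. In the averaged background effect 10 of the 38 were called, a share close to the 26.5% of all genes. Of these, 6 were higher in D2 background (Zfp57, Trim28, Ehmt1, Hells, Mbd3 and Gadd45a) and 4 lower (Mbd4, Neil2, Apex1 and Gadd45b). Ehmt1, a histone H3 lysine 9 methyltransferase, rose by 0.61 (SE 0.13, edgeR FDR 0.000116), from 68.8 ± 5.98 CPM in B6 and 59.3 ± 3.06 CPM in B6-13D2 to 103 ± 22.6 CPM in D2 and 93.6 ± 18.2 CPM in D2-13B6 (SD, 2 libraries). In Zfp57 and Trim28 the averaged effect rested on D2-13B6: Trim28 averaged 692 ± 51.4 CPM there against 457.8 to 489 CPM in the other lines and Zfp57 2061 ± 152 CPM against 1409 to 1599 CPM, and D2 against B6 was not called for either (0.09, edgeR FDR 0.686, and 0.18, edgeR FDR 0.245). Of the repair genes, Apex1, the abasic site endonuclease, measured -0.36 (SE 0.08, edgeR FDR 0.000232) and Neil2, a glycosylase, -0.73 (SE 0.21, edgeR FDR 0.00447), and Gadd45b, linked to demethylation, measured -0.27 (SE 0.08, edgeR FDR 0.00348). The calls of Apex1, Gadd45b, Zfp57 and Trim28 in this contrast were lost without loops inside 1 anchor (edgeR FDR 0.379, 0.131, 0.0894 and 0.0974), that of Gadd45b without B6-13D2 replicate 2 (-0.20, edgeR FDR 0.0667) and that of Neil2 without B6 replicate 1 (-0.62, edgeR FDR 0.0517) and with DESeq2 (-0.74, adjusted p 0.0809).

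The imprint regulators Zfp57 and Trim28 and the enzyme Usp7 were, like Tet1, lower in D2 than in D2-13B6. Calls in this contrast ran lower over all genes too, with 1377 lower and 478 higher, against 864 lower and 910 higher under library totals alone. The summed markers of naive stem cells were likewise highest in D2-13B6, at 4.85e+03 CPM against 4.01e+03 to 4.36e+03 CPM in the other lines, and their part was not tested. Zfp57, which binds methylated imprints, measured 1953 and 2168 CPM in D2-13B6 and 1338 to 1628 CPM in the other 6 libraries. Its partner Trim28 measured 656 and 728 CPM in D2-13B6 and 427 to 509 CPM elsewhere, and Usp7, a deubiquitinase that binds Dnmt1 and Uhrf1, measured 2533 and 2689 CPM against 1790 to 2460 CPM. All 3 were highest in both D2-13B6 libraries. They were the only genes of the 38 called in D2 against D2-13B6 and in the interaction, 3 of 38 in each against 9.50% and 8.09% of all genes. D2 against D2-13B6 measured -0.37 for Zfp57 (SE 0.10, edgeR FDR 0.00536), -0.50 for Trim28 (SE 0.11, edgeR FDR 0.000362) and -0.33 for Usp7 (SE 0.10, edgeR FDR 0.0127). Their interactions were -0.54 (SE 0.14, edgeR FDR 0.00546), -0.56 (SE 0.15, edgeR FDR 0.0107) and -0.61 (SE 0.14, edgeR FDR 0.000994). The call of Trim28 in D2 against D2-13B6 was lost without D2-13B6 replicate 2 (edgeR FDR 0.061). That of Zfp57 was lost with a scaling factor per chromosome (-0.26, edgeR FDR 0.0571), under which those of Trim28 (-0.43, edgeR FDR 0.00212) and Usp7 (-0.35, edgeR FDR 0.00439) were kept, and that of Usp7 with library totals alone (-0.24, edgeR FDR 0.0615). Those of Zfp57 and Usp7 were lost without either D2 library or D2-13B6 replicate 2 (edgeR FDR 0.0646 to 0.235), that of Usp7 also without D2-13B6 replicate 1 (edgeR FDR 0.0574), and both without loops inside 1 anchor (edgeR FDR 0.106 and 0.313). In the interaction, Usp7 passed in all 18 alternatives, Zfp57 was lost without D2 replicate 1 (edgeR FDR 0.0743) or D2-13B6 replicate 2 (edgeR FDR 0.101), and Trim28 with library totals alone (-0.40, edgeR FDR 0.0851), without loops inside 1 anchor (-0.38, edgeR FDR 0.155) and without B6 replicate 2, either D2 library, B6-13D2 replicate 2 or D2-13B6 replicate 2 (edgeR FDR 0.0544 to 0.125).

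Of the 38 genes 2 were called in the averaged interval effect, against 9.69% of all, and both were higher with the D2 allele. Pcna, the replication clamp, measured 130 and 154 CPM in B6 and 178 and 171 CPM in D2-13B6, against 212 and 188 CPM in B6-13D2 and 189 and 236 CPM in D2. The groups did not overlap, and the effect was 0.38 (SE 0.10, edgeR FDR 0.00368), with 0.49 in B6-13D2 against B6 (SE 0.14, edgeR FDR 0.0163) and 0.58 in D2 against B6 (SE 0.14, edgeR FDR 0.00214). In D2 against D2-13B6, Pcna measured 0.28 (SE 0.13, edgeR FDR 0.187), which was not called. Idh1, an isocitrate dehydrogenase that makes the cosubstrate of Tet enzymes, measured 0.37 (SE 0.12, edgeR FDR 0.0343), and Ehmt1 was the second gene of the list called in D2 against B6, at 0.56 (SE 0.19, edgeR FDR 0.0406). Pcna was the 1 gene of the list called in B6-13D2 against B6. The interval call of Pcna was lost without D2 replicate 2 (0.31, edgeR FDR 0.0856) and with anchors up to 10 kb from a start (0.16, edgeR FDR 0.185), its call in D2 against B6 with the same wider anchors (0.28, edgeR FDR 0.0917) and without B6 replicate 1 (edgeR FDR 0.112) or D2 replicate 2 (edgeR FDR 0.19). Its call in B6-13D2 against B6 was lost with the wider anchors (0.25, edgeR FDR 0.164), with DESeq2 (0.51, adjusted p 0.0833) and without B6 replicate 1 (edgeR FDR 0.255) or B6-13D2 replicate 1 (edgeR FDR 0.112). The call of Idh1 was lost without any 1 of 6 libraries (edgeR FDR 0.0535 to 0.177), the exceptions being B6 replicate 2 and B6-13D2 replicate 1, and with a scaling factor per chromosome (0.27, edgeR FDR 0.189), a replicate block (0.37, edgeR FDR 0.051) and DESeq2 (0.38, adjusted p 0.152). That of Ehmt1 in D2 against B6 was lost with a replicate block (0.57, edgeR FDR 0.05), with DESeq2 (0.57, adjusted p 0.208) and without any 1 of 5 libraries (edgeR FDR 0.0518 to 0.539), namely both of B6, D2 replicate 2 and both of D2-13B6. It was 0.32 without D2 replicate 2 and 0.77 without D2 replicate 1.

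Neighbours within 500 kb of the 3 called genes were read in the same contrasts. Around Dnmt3a, 10 neighbouring genes were tested, and in the averaged interval effect 1 was called higher (Rab10) and 0 lower (4.26% of all genes were called higher and 5.43% lower). In B6-13D2 against B6, 2 of the 10 were called higher (Asxl2 and Kif3c, against 4.17% of all genes) and 0 lower, the opposite direction to Dnmt3a. Around Dnmt3l, 1 of 12 neighbours was called lower in B6-13D2 against B6 (Pwp2, against 2.50% of all genes), 1 in the averaged interval effect (D10Jhu81e, against 5.43%) and 1 in the averaged background effect, where Dnmt3l was higher (Pttg1ip, against 12.8%). Around Tet1, 2 of 19 were called lower in D2 against D2-13B6 (Mypn and Slc25a16, against 7.05% of all genes). Each of these 8 neighbours shares at least 1 loop with an anchor of the gene it neighbours, so the same counts enter both genes of a pair. Among tested protein-coding genes on other chromosomes, the 2 whose log2 CPM ran most alike over the 8 libraries were Lmnb2 (r = 0.964) and Abr (r = 0.961) for Dnmt3a, Gm28729 (r = 0.983) and Osbpl10 (r = 0.953) for Dnmt3l, and Ccdc157 (r = 0.967) and Kcmf1 (r = 0.949) for Tet1. These are the highest of 11066 to 11255 Pearson correlations for each gene, over 8 libraries in 4 lines, and describe the pattern only. Abr and Ccdc157 lie on chromosome 11, whose share was highest in D2-13B6.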

How the data were processed

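H3K27ac HiChIP libraries were prepared with micrococcal nuclease and read as 150 bp pairs, per the labels. The authors deposited a table of whole-number counts per loop and library, with no normalization, and the pairs of 5 kb bins behind it. The submitters' processing notes list BWA 0.7.18, SAMtools 1.19.2, edgeR 3.34.1 and mm10; the loop caller is not given in the sources used here. The 8 genes and the pathway list were chosen with earlier results of these data known.

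Loops were assigned to genes by anchors within 5 kb of a GENCODE M21 start on GRCm38, and the counts of a gene's loops were summed. Sums (at least 10 counts in at least 2 libraries), loops (at least 5) and, as an addition, single anchors (at least 10) were fitted over all 8 libraries with 1 mean per line in R 4.3.3. The test was the quasi-likelihood F-test (edgeR 4.0.16, TMM scaling), adjusted by Benjamini-Hochberg over all features. Named in the text were all 8 genes, for each the 3 loops of highest mean CPM and every called loop, and of the pathway list up to 3 risen and 3 fallen genes of lowest FDR per contrast. Likeness of pattern was Pearson's r of log2 CPM. DESeq2 1.42.0, other scalings, filters, windows and left-out libraries were alternatives. In data simulated for the background effect over 19314 genes, 60.6% of 1.5-fold and 87.9% of 2-fold changes were recovered, with 14 false calls. Over 40390 loops, 25% of 2-fold changes were recovered. The simulation changed 66 genes at each of the sizes 1.5-fold and 2-fold, against 26.5% of genes called in the data. It used 1 dispersion for all features and tested no contrast of 2 lines, so its rates do not carry over to such contrasts. Replicates differed by 1.05 to 1.2 times sampling noise (chi-square per degree of freedom), and none were merged. P-values measure the spread between technical libraries.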

Additional observations from a re-analysis of the deposited data

How the results depend on the processing

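The 6 called differences of the 8 genes had 105 alternatives, of which 76 kept the call, 29 lost it and 0 turned its direction. Of the 42 uncalled differences, 27 changed sign under at least 1 alternative, the largest of these being 0.29 in size, and 5 were called under one (Dnmt1 in the averaged background effect, Dnmt1 and Dnmt3a in D2 against B6, Dnmt3a in D2 against D2-13B6 and the Dnmt3l interaction). The causes were not tested. Each genotype was 1 line with technical replicates. Loops were tested at low counts, and the simulated recovery of changes was lower for loops than for promoter sums.

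For promoter sums, the background effect called 1 of the 8 genes, with 0 under DESeq2, 2 with each anchor tested alone (added after seeing the data) and 0 to 2 as single libraries were left out. The interval effect called 2, with 0 under DESeq2, which gave no adjusted p to either, 1 without loops inside 1 anchor and 0 to 2 without single libraries. D2 against B6 called 0, with 0 to 2 without single libraries. B6-13D2 against B6 called 2, with 1 under RLE factors, over anchors that hold a start, with anchors within 10 kb and without loops inside 1 anchor, 0 under DESeq2, and 1 to 2 without single libraries. D2 against D2-13B6 called 1, with 2 under a scaling factor per chromosome (Tet1 and Dnmt3a), 0 under library totals alone and without loops inside 1 anchor, and 0 to 1 without single libraries. The interaction called 0, with 1 under library totals alone (Dnmt3l) and 1 with each anchor alone (Tet1), and 0 to 1 without single libraries.

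For loops, the background effect called 1, with 0 at a minimum of 2 counts, under DESeq2 and without loops inside 1 anchor, and 0 to 2 without single libraries. The interval effect called 1, with 0 at a minimum of 2 counts, under DESeq2 and without loops inside 1 anchor, and 0 to 1 without single libraries. D2 against D2-13B6 called 1, with 0 without loops inside 1 anchor, which removes the called loop itself, and 0 to 1 without single libraries.

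Among uncalled differences given in the text, signs turned for Dnmt3l in D2 against B6 (-0.13 to 0.11), Tet1 in B6-13D2 against B6 (-0.06 to 0.10) and Tet2 in D2 against D2-13B6 (-0.19 to 0.07), each over all its alternatives. The interaction of Dnmt3a was -0.15 over anchors that hold a start and -0.21 to 0.43 without single libraries. The difference of Dnmt3l in D2 against D2-13B6 was 0.01 under library totals alone and -0.17 to 0.02 without single libraries. The interaction of Tet2 was 0.00 without loops inside 1 anchor. Library totals alone shifted the interaction of promoter sums by 0.16, as taken from the mean log2 TMM factors of the lines. They turned the split of higher and lower calls over all genes from 815 and 488 to 552 and 707 in B6-13D2 against B6, from 478 and 1377 to 910 and 864 in D2 against D2-13B6, and from 382 and 1198 to 712 and 523 in the interaction.

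A scaling factor per chromosome took the calls over all genes in D2 against D2-13B6 from 1855 to 1067, and those of the averaged interval effect from 1892 to 1230.

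Replicate numbers did not pair the libraries: deviations of same-numbered libraries correlated at -0.18 to 0.0527 between lines. With the replicate number as a block, B6-13D2 against B6 called 1 of the 8 genes, D2 against D2-13B6 called 0, and the interval effect called 0 loops. Over all promoter sums, in the order averaged background effect, averaged interval effect, parental D2 against B6, B6-13D2 against B6, then D2 against D2-13B6 and interaction, the block left 4791, 1509, 2142, 988, 1571 and 1145 calls. Without it there were 5181, 1892, 2423, 1303, 1855 and 1580, against 2820, 672, 1138, 601, 931 and 1015 under DESeq2. For all loops, edgeR called 3956, 442, 1183, 393, 407 and 269, and DESeq2 1244, 127, 338, 139, 200 and 185.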
